A study of Rattus norvegicus with 7 samples.

Results

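Gene expression in rat cerebral cortex 1 day after a contusion was described from the 3 arrays of 1 dpi (days post injury), among 7 arrays in the series. Each array carried RNA from 1 male Sprague Dawley rat and gave, for each of 6240 cDNA features, the log2 ratio of injured (ipsilateral) over uninjured (contralateral) cortex. A value of 1 on this scale is therefore a doubling in the injured cortex and a value of -1 a halving. Clones measured in 2 or more animals were kept. This left 4952 of 6240, of which 3803 had a value in every animal and 1149 in 2.

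The contusion was made by a weight dropped through a guide tube onto a footplate that rested on the dura after a craniotomy, and the impact area was dissected together with surrounding cortex. Before surgery every animal was anaesthetised with Hypnorm-Dormikum (fentanyl, fluanisone and midazolam) and had Xylocaine, a local anaesthetic, under the scalp. No transgene or test compound was used, the age was not given in the sources used here, and the reference was the opposite cortex of the same animal rather than sham-operated tissue, so opening the skull and the impact cannot be told apart. Animals 1, 2 and 3 are named by their replicate numbers. Injured RNA was in Cy5 for animals 1 and 2 and in Cy3 for animal 3, which leaves the dye and the animal inseparable for the third array. As the deposited values are ratios, the level of a cell type marker in the tissue could not be read, and markers are given as ratios below. Such ratios are of bulk tissue, in which fewer cells of a type and less RNA per cell cannot be told apart.

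A cortical contusion kills cells at the impact, opens the blood-brain barrier and draws in blood-borne leucocytes, while resident microglia and astrocytes around the lesion change their shape and gene expression. Stressed neurones and glia switch on immediate early genes, whose products are transcription factors, and a later programme of cell adhesion, cytoskeletal and matrix genes follows. Proteases that cut the extracellular matrix and the inhibitors that hold them back are part of that programme.

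At 1 dpi, 193 clones were called higher and 75 lower in injured cortex, which is 3.9% and 1.51% of the clones tested. A call required a Benjamini-Hochberg adjusted p of 0.02 or less in limma, a linear model fit over all clones, and a mean log2 ratio beyond 0.7, which is a 1.6-fold change. With 0.7 required on every array as well, the counts were 112 and 26. Most clones stayed close to no change, with 71.8% of the means within 0.3 of 0 and a median of 0.01. The high side reached further than the low side. Means above 2 on the log2 scale numbered 16 and means below -2 numbered 1, while 95 called clones exceeded 1 and 23 lay below -1. Called clones had a median mean of 0.99 on the high side, from 0.70 to 3.79, and of -0.86 on the low side, from -2.24 to -0.71. Values of every called clone lay on 1 side of 0 on every array with a value, where 54.2% of all clones did so. As the call used these same values, this shared sign largely follows from it and is not separate evidence of agreement.

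**Figure D1:**
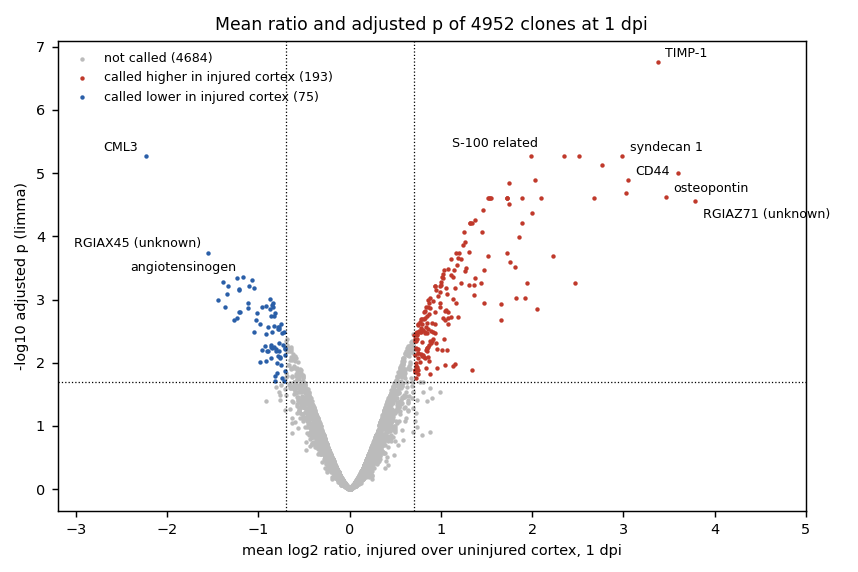
Each point is 1 of 4952 clones, with its mean log2 ratio of injured over uninjured cortex on the x axis and -log10 of its adjusted p from limma on the y axis, and dotted lines mark the limits of a call. The 193 clones called higher (red) reach 3.79, whereas the 75 called lower (blue) end at -2.24, the value of the N-acetyltransferase CML3, and TIMP-1 has the smallest adjusted p.

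The arrays had medians within 0.01 of 0 and values on 3993, 5208 and 5041 features for animals 1, 2 and 3, a number that reflects spots bright enough to be kept. Animal 1 lacked a value for 970 of the clones kept, animal 2 for 34 and animal 3 for 145. Across clones, ratios of animals 1 and 2 had a Pearson r of 0.78 (n = 3948 clones), those of animals 1 and 3 of 0.68 (n = 3837) and those of animals 2 and 3 of 0.58 (n = 4773). These are descriptions over clones of shared arrays, not replicates. The spread over animals was larger among clones called lower (median SD 0.36) than among those called higher (0.22) or all clones (0.19).

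Calls made on 2 arrays were then read on the array they had not used. Clones called higher without animal 3 had a median log2 ratio of 0.92 in animal 3, where 145 of 150 were above 0 and 67.3% above 0.7, against 5.52% of all clones. Clones called lower without animal 3 had a median of -0.54 there, with 94 of 98 below 0 and 29.6% below -0.7, against 1.42% of all clones. In animal 1, left out in turn, 149 of 150 clones called higher on animals 2 and 3 were above 0 and all 39 of those called lower were below 0. In animal 2 these numbers were 120 of 120 and 50 of 51. The direction thus held for nearly every clone in an animal that had no part in the call. The size of the decreases varied more, with a median of -1.11 in animal 1 against -0.86 on the arrays that made the call, of -0.70 in animal 2 against -0.98 and of -0.54 in animal 3 against -0.87. Of these clones, 87.2% were below -0.7 in animal 1 and 51.0% in animal 2.

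**Figure D2:**
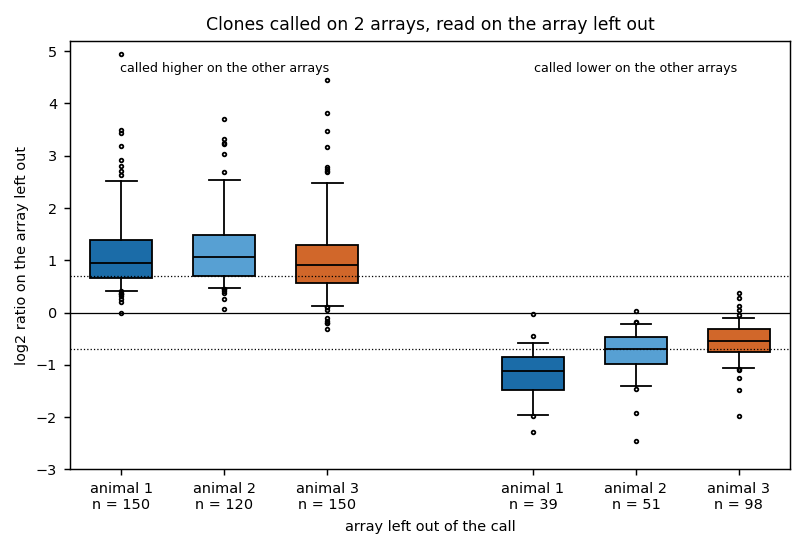
Box plots of the log2 ratio on the array left out, for clones called higher (left) or lower (right) on the other arrays, with boxes from the lower to the upper quartile, a line at the median, whiskers at the 5th and 95th percentiles, points beyond them and dotted lines at 0.7 and -0.7. The medians of the clones called higher are 0.95, 1.07 and 0.92 in animals 1, 2 and 3, and those of the clones called lower are -1.11, -0.70 and -0.54.

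Gene names came from the clone lists of the study and were held by 110 of the clones called higher and 38 of those called lower. A further 62 and 27 were in no list and are known by clone ID alone. The lists were made by the study from these same arrays, so the counts by function that follow describe which named genes changed and are not independent evidence that a function changed. All tested clones on adhesion, on cell cycle, stress and death, on the cytoskeleton, on proteases and for macrophages and microglia came from the study's list of raised clones, and all on transport and secreted proteins, on neuronal membrane and synapse and for astrocytes and neurones from that of lowered clones. Their shared sign follows from that choice. Each list is set beside the background of 3.9% called higher and 1.51% called lower and the median mean of 0.01 over all clones tested.

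Adhesion receptors and their ligands, all 7 drawn from the list of raised clones, were called higher for 7 of 7, with a median mean of 2.77. The integrin ligands vitronectin and fibronectin were kept with the extracellular matrix and are described there. Osteopontin (RNABT23), a secreted matrix phosphoprotein that binds integrins and CD44, had log2 ratios of 2.64, 3.32 and 4.44 in animals 1, 2 and 3, a mean of 3.47 ± 0.91 (SD, n = 3, adjusted p = 2.4e-05) or 11.1-fold. CD44 (RNABK17), its receptor and that of hyaluronan, had 2.80, 2.54 and 3.82, a mean of 3.05 ± 0.68 (n = 3, adjusted p = 1.31e-05). Both were highest in animal 3, and no animal was near 0.

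Syndecan 1 (RGIAE40), a cell surface proteoglycan that carries heparan sulphate chains, had 3.49, 2.68 and 2.79, a mean of 2.99 ± 0.44 (n = 3, adjusted p = 5.44e-06). Syndecan 4 (RNABM48), a member of the same family found at focal adhesions, was called with smaller values of 0.86, 1.34 and 0.75. Heparin-binding EGF-like growth factor (RNABX10), a ligand of the EGF receptor that is shed from the cell surface and binds heparan sulphate, had 2.72 and 2.82 in animals 1 and 2 and no value in animal 3 (mean 2.77, adjusted p = 7.59e-06). Intercellular adhesion molecule-1 (RNACA35), which leucocytes grip as they cross activated endothelium, stood at 1.08 in both animals with a value. Osteoactivin (RGIAR28), a transmembrane glycoprotein of macrophages and osteoclasts, varied more, with 0.83, 1.93 and 1.33. All of these clones were above 0 in every animal with a value.

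**Figure D3:**
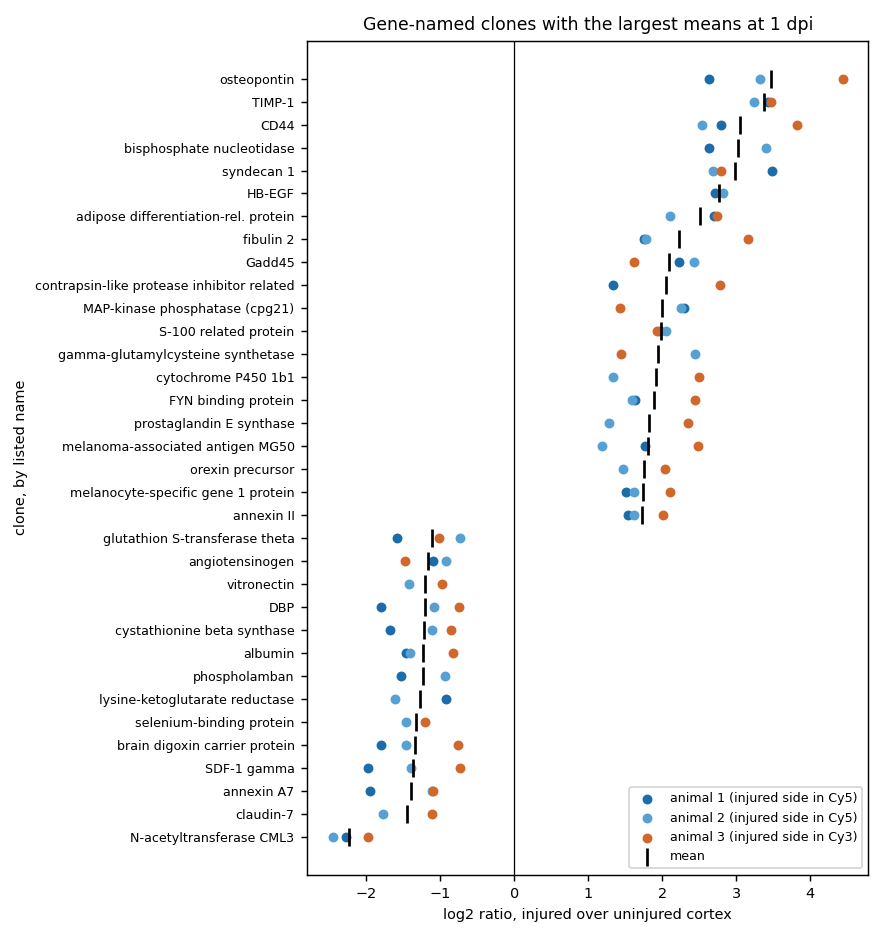
Log2 ratio of injured over uninjured cortex in each animal (points, by colour) and their mean (bar) for the gene-named clones with the 20 largest and the 14 lowest means among called clones. All points of the upper clones lie above 1 and all points of the lower clones lie below -0.7, and osteopontin, CD44 and fibulin 2 are highest in animal 3.

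Among transcription factors and related regulators, 10 of 14 clones were called higher, 1 lower and 3 neither, with a median mean of 1.15. The 10 include TIS11 (RGIAN52), an RNA-binding protein that destabilises messenger RNA, with 0.84 and 0.75 in animals 1 and 2. C/EBP delta (RNABR21), a factor of the acute phase response, had 1.52, 1.63 and 2.01 (mean 1.72 ± 0.25, n = 3, adjusted p = 2.52e-05). Stat3 (RNABV84), which relays signals of the interleukin-6 family, had 1.39, 1.99 and 1.16 (mean 1.51 ± 0.43, adjusted p = 0.000207). Nuclear factor kappa B (RNABM55), the main inflammatory transcription factor, was called with the closely spaced values of 1.09, 1.12 and 1.26. Melanocyte-specific gene 1 protein (RGIAG34, the transcriptional co-regulator Cited1) had 1.51, 1.62 and 2.11, while its relative mrg1 (RNACE49, Cited2) had -0.12, 0.14 and 0.30 and was not called.

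Other members of the list varied more between animals. The c-fos clone (RNACF11), a subunit of the AP-1 factor, had 2.51, 1.77 and 0.70 (mean 1.66 ± 0.91, n = 3, adjusted p = 0.00209), and without animal 2 its adjusted p was 0.0201, just outside the limit. With robust eBayes, which lets single clones depart from the common spread, it was 0.0319. Its partner c-jun (RGIAK48) had 1.49, 1.21 and 0.71 (mean 1.14 ± 0.40, adjusted p = 0.000979). The v-myc homolog (RNACB54), a driver of growth and proliferation, had 1.66, 2.03 and 0.74 (mean 1.47 ± 0.67, adjusted p = 0.00113). These genes were lowest in animal 3 and above 0 in every animal. Activating transcription factor-4 (RNACA21), which is translated under amino acid and endoplasmic reticulum stress, did not show this spread and had 0.82, 0.89 and 0.86. The retinoic acid receptor alpha 2 isoform (RNABN09) was also even, with 1.62, 1.56 and 1.40. Lower in injured cortex was D site albumin promoter binding protein (DBP, RNABX44), an output factor of the circadian clock, with -1.81, -1.08 and -0.75 (mean -1.21 ± 0.54, adjusted p = 0.0016).

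Since factors of the AP-1, ATF/CREB and Stat families were among these genes, promoters of the called genes were searched for short motifs. The sequences came from RefSeq (assembly GRCr8) and hold 250 bases before and 50 after each gene start. Of 89 symbols of called clones, 69 were found. The AP-1 letters TGAGTCA, on either strand, stood in 3 of 57 promoters of genes called higher (5.26%), in 2 of 19 of those called lower (10.5%) and in 4.63% of all 33469 promoters. The CRE letters TGACGTCA stood in 1.75%, 0% and 1.83%, and the Stat letters TTCNNNGAA in 5.26%, 10.5% and 8.87%. Shares among the called genes were thus those of 0 to 3 promoters each and, for the genes called higher, close to or below that of all promoters. Examples of a match in genes called higher are shown, for each of the motifs, with the matched letters in capitals and all on the plus strand: annexin II at chr8:78986099-78986165 and osteoactivin at chr4:79341011-79341077 (AP-1), intercellular adhesion molecule-1 at chr8:27829708-27829776 (Stat) and lactate dehydrogenase A at chr1:106508011-106508078 (CRE). They are a description of letters and not of binding.
Anxa2: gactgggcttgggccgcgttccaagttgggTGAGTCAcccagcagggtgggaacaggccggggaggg
Gpnmb: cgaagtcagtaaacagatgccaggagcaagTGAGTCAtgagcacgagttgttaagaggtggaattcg
Icam1: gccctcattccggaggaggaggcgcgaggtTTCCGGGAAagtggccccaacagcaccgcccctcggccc
Ldha: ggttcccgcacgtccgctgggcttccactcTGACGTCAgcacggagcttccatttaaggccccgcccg

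Genes of cell cycle, stress and cell death were called higher for 9 of 11 clones, with a median mean of 0.94. Gadd45 (RNABK65, listed as an EST), a sensor of DNA damage and growth arrest, had 2.23, 2.43 and 1.62 (mean 2.10 ± 0.42, n = 3, adjusted p = 2.51e-05). Its regulator p53 (RNABM89) was called at 1.16, 0.81 and 0.99. Heat shock protein 70 (RNABM05), a chaperone of stressed cells, had 1.22, 0.71 and 1.26. CASP8 and FADD-like apoptosis regulator (RNABA90) and bcl-2 (RNACF64), which both restrain cell death, had 2.15 and 1.17, and 0.96 and 0.92, in animals 2 and 3. Genes that promote and genes that block death were thus both among those called higher. Of the genes of cell division, cyclin D1 (RNABS77) had 0.79 and 0.91 in the same 2 animals and its kinase, cyclin-dependent kinase 4 (RGIAD58), had 1.18, 1.00 and 0.49. Without animal 2 the kinase (adjusted p = 0.025) and the replication factor CDC21 (RNABQ55, adjusted p = 0.0227) were no longer called.

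Cytoskeletal genes and their linkers were called higher for 8 of 9 clones, with a median mean of 1.18. S-100 related protein (RNABO14), of a family of small EF-hand proteins, had 1.97, 2.05 and 1.93 (mean 1.98 ± 0.06, n = 3, adjusted p = 5.44e-06), the smallest spread of this list. Annexin II (RGIAP49), a membrane-binding protein that also gathers plasminogen and its activator at the cell surface, had 1.54, 1.61 and 2.01 (mean 1.72 ± 0.25, adjusted p = 2.52e-05). Moesin (RGIAC38) and ezrin (RNABM92), which tie actin to membrane proteins such as CD44, had 2.16, 1.13 and 1.87, and 1.10, 0.80 and 1.09. Vimentin (RNABM67), the intermediate filament of reactive astrocytes, endothelium and leucocytes, had 1.10, 1.07 and 1.94 and was highest in animal 3. Lamin A, of the nuclear envelope, was spotted as 2 clones, of which one (MKAH11) was called at 1.10 and 1.24 in animals 1 and 2. The other (RGIAB08) had 0.48, 0.85 and 0.75, a mean of 0.69, which fell short of the limit of 0.7.

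The extracellular matrix was split, with 3 of 8 clones called higher, 1 lower and 4 neither, and a median mean of 0.20. Fibulin 2 (RGIAN11, listed as similar to it), a glycoprotein of basement membranes and elastic fibres, had 1.75, 1.78 and 3.17 (mean 2.23 ± 0.81, n = 3, adjusted p = 0.000207). Prolyl 4-hydroxylase beta (RNABT27), needed to fold collagen, had 0.66, 1.48 and 0.93, and matrix Gla protein (RGIAK84) had 0.76, 0.97 and 0.67 but an adjusted p of 0.0202 without animal 2. The collagens themselves were not called. Collagen III (RGIAM23) had -0.30, -0.65 and 0.82, on both sides of 0, and collagen I (RGIAN74) had -0.32, -0.82 and -0.11. Fibronectin (RGIAQ36) had 0.63, 0.46 and 0.27 and osteonectin (RGIAQ88) -0.55, -0.32 and -0.03, and neither passed. Vitronectin (RNABR91), an adhesive plasma and matrix protein that binds integrins, was lower, with -1.43 and -0.98 in animals 2 and 3 (mean -1.21, adjusted p = 0.00158).

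Proteases and their inhibitors were called higher for 8 of the 12 clones that could be tested, with a median mean of 0.81. All 12 were listed as raised by the study at 1 or 4 dpi. Tissue inhibitor of metalloproteinase-1 (TIMP-1, RGIAQ65), which blocks matrix metalloproteinases, had 3.43, 3.25 and 3.47, a mean of 3.38 ± 0.12 (SD, n = 3) or 10.4-fold, and its adjusted p of 1.76e-07 was the smallest of all clones. TIMP-2 (RNABV95) had 0.50, 0.51 and 1.17, and its call was lost without animal 2 (adjusted p = 0.0244) and without animal 3 (mean 0.51). Contrapsin-like protease inhibitor (RNABP40), a serpin of the acute phase, had 1.33 and 2.78 in animals 1 and 3, and lost its call with robust eBayes (adjusted p = 0.0356). Tissue plasminogen activator (RNABP80), the serine protease that makes plasmin, had 1.64, 1.60 and 1.39 (mean 1.54 ± 0.14, adjusted p = 2.52e-05).

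Further members of the list were read as follows. Endothelin-converting enzyme (RNABM83) had 0.94, 0.66 and 1.63, carboxypeptidase D (RNABD01) 0.96, 0.80 and 1.07 and cathepsin K (RNABQ32) 0.82 and 0.87 in animals 2 and 3. Tissue factor pathway inhibitor (RNACE81), a brake on clotting, had 0.66, 0.91 and 0.74 and an adjusted p of 0.021 without animal 2. Cathepsin D (RGIAB71), the lysosomal aspartic protease, had -0.00059, -0.05 and 0.30, and myelencephalon specific protease (RNABV39), a kallikrein of oligodendrocytes, 0.43, 0.65 and 0.44, neither of which was called. Neuroserpin and cystatin C, inhibitors that the study listed as lowered at 1 dpi, could not be described because their clone IDs were not matched in the table. The IDs of calpain 2, cystatin beta and cathepsins B and L carried other values than listed and were not used either.

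Phagocyte and immune genes were more mixed, with 8 of 17 called higher, 2 lower and 7 neither, and a median mean of 0.69. FYN binding protein (RGIAO59), an adaptor of T cells and myeloid cells, had 1.63, 1.60 and 2.45 (mean 1.89 ± 0.48, n = 3, adjusted p = 6.2e-05). Prostaglandin E synthase (RGIAO01), the inducible last enzyme of prostaglandin E2 synthesis, had 1.29 and 2.35 in animals 2 and 3 (mean 1.82, adjusted p = 0.000956). Complement component C3 (MKAH22) had 0.78 and 1.28 in animals 1 and 2. Interleukin-1 receptor accessory protein (RNACA10), the signalling partner of the interleukin-1 receptor, had 1.04, 0.53 and 0.95.

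Markers of macrophages and microglia were also read. Class III Fc gamma receptor (RNABC93) had 0.76, 0.95 and 0.81, C1q beta chain (RNABQ08) 0.56, 0.89 and 0.78 and C1q C chain (RGIAJ90) 0.64, 0.65 and 0.82. MHC class II DM beta (RNABR27), a chaperone of antigen loading, had 0.94 and 1.43 in animals 2 and 3, whereas macrophage expressed gene 1 (RNABF77) had 0.46, 0.02 and 0.78 and was not called. In all, 4 of 5 such markers were called higher. The means of all 5 ran from 0.42 to 1.19, beside a median of 0.99 for all clones called higher. Other clones of the phagocyte and immune list, not among these markers, were not called. C10 (RGIAI44) had -0.84, -0.50 and -0.71, granulin (RGIAA16) 0.03, -0.13 and -0.35 and natural resistance-associated macrophage protein 2 (RNACD17) 0.48, 0.71 and 0.87. C1q beta lost the call without animal 2 (adjusted p = 0.027), and C1q C without animal 3, where its mean was 0.64.

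Alpha-2-macroglobulin (RGIAO94), an acute phase protease trap, had 0.40, 0.17 and 0.39, beta-2-microglobulin (RNABI87), the light chain of class I MHC, 0.16, 0.41 and 0.61 and CD24 (RGIAI89) 0.38 in every animal, and none of these was called. Lower in injured cortex were stromal cell-derived factor-1 gamma (RNABQ38, listed as an EST), a chemokine of the Cxcl12 gene, with -1.98, -1.39 and -0.74 (mean -1.37 ± 0.62, n = 3, adjusted p = 0.00132), and RT1 class Ib (RGIBC16), a non-classical class I MHC molecule, with -1.34, -1.19 and -0.77. Both decreases were smallest in animal 3 and clear of 0 in every animal.

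Neuropeptides and growth factors had 7 of 11 clones called higher, 1 lower and 3 neither, with a median mean of 0.87. Neuropeptide Y (RNABV45), a peptide of cortical interneurones, had 1.70, 1.48 and 1.16 (mean 1.45 ± 0.27, n = 3, adjusted p = 8.7e-05), and cholecystokinin (RNABU89), another, had 0.64, 1.09 and 0.87. The clones listed as orexin precursor (RNABU29) and as similar to oxytocin (RNABP53), both peptides made in the hypothalamus, had 1.48 and 2.03 in animals 2 and 3 and 0.89 and 0.86 in animals 1 and 2. Insulin-like growth factor-binding protein 3 (RNABK89) was even across animals at 1.40, 1.08 and 1.26. Transforming growth factor beta-2 (RNABO15) had 0.79, 0.87 and 1.51, and bone morphogenetic protein 2 (RGIAS92), of the same superfamily, had 0.89, 0.68 and 0.92.

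Brain-derived neurotrophic factor (RGIAF46), which supports neurones and is switched on by activity, had 1.27, 1.03 and 0.12 and missed the limit with an adjusted p of 0.0202. It passed with SAM (adjusted p = 0.0147), on centring (0.0162), on scaling (0.0197) and among clones with a value on every array (0.00492), alternatives named with the processing. On animals 1 and 2 alone its mean was 1.15 with an adjusted p of 0.000434, while without animal 2 it was 0.70 with an adjusted p of 0.11. Epidermal growth factor (RNACC19) had the same shape, with 0.86, 0.89 and 0.11, and was not called (adjusted p = 0.0288). Insulin-like growth factor II (RNABO23), which in adult brain is made in meninges and choroid plexus, was lower with -0.90, -1.06 and -0.33 (mean -0.76 ± 0.38, n = 3, adjusted p = 0.00798). Its mean was -0.69 without animal 1 and -0.61 without animal 2, and -0.65 with a dye term, all short of the limit of -0.7.

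Genes of glucose use and lipid handling had 6 of 11 clones called higher, 1 lower and 4 neither, with a median mean of 0.78. Aldolase C, an enzyme of glycolysis that the study listed as lowered, had too few values to be tested. Adipose differentiation-related protein (RGIAT38, listed as an EST), the coat of lipid droplets, had 2.70, 2.10 and 2.74 (mean 2.51 ± 0.36, n = 3, adjusted p = 5.44e-06) or 5.71-fold. Fatty acid binding protein 5 (RNABR39), which carries fatty acids in the cytosol, had 0.90, 0.89 and 1.01. Of the clones for glucose use, glucose-transporter type 1 (RGIAK80), of blood-brain barrier endothelium and astrocytes, had 1.30, 1.22 and 0.60, phosphofructokinase (RNABU76) 0.66, 0.92 and 0.78 and lactate dehydrogenase A (RGIAN09), which turns pyruvate into lactate, 0.90, 0.94 and 0.79. Pyruvate dehydrogenase phosphatase 1 (RNABX11), which switches pyruvate dehydrogenase on, had 0.90, 0.92 and 0.51 and lost the call without animal 2 (adjusted p = 0.027).

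The other 5 clones, all from the list of lowered clones, had means below 0, of which 1 was called. The peroxisomal enoyl hydratase-like protein (RGIAE70) was called lower at -0.79, -0.77 and -0.60 (mean -0.72), and its mean was -0.69 without animal 1, without animal 2 or with a dye term. Mitochondrial carnitine/acylcarnitine carrier (RNACB26), 2,4-dienoyl-CoA reductase (RGIAA64), isocitrate dehydrogenase (RNACC94) and lipoprotein lipase (RGIAA23) had means from -0.70 to -0.66 and adjusted p from 0.00587 to 0.00896. They were below 0 in every animal and fell just short of the limit on the mean.

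Redox and detoxification genes split evenly, with 6 of 13 called higher, 6 lower and 1 neither. On the high side stood gamma-glutamylcysteine synthetase (RNABT53), which makes the precursor of glutathione, with 2.45 and 1.45 in animals 2 and 3. Catalase (RNABM26), which breaks down hydrogen peroxide, had 1.65, 1.59 and 1.42 (mean 1.55 ± 0.12, n = 3, adjusted p = 2.52e-05), and metallothionein (RNABO13), a metal-binding antioxidant, had 1.40, 1.60 and 1.54 (mean 1.52 ± 0.10, adjusted p = 2.52e-05). Thioredoxin reductase 1 (RNABR75) had 0.93, 1.37 and 1.13. Cytochrome P450 1b1 (RNABX41) and IID2 (RNACD76) had 1.34 and 2.50, and 0.96 and 1.19, in animals 2 and 3.

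Of the clones called lower, glutathione S-transferase theta (RNACA56) had -1.59, -0.74 and -1.01 (mean -1.11 ± 0.43, n = 3, adjusted p = 0.00137), mu type 3 (RNABI84) -1.09, -0.39 and -0.83 and alpha type (RNABK10) -0.98, -0.46 and -0.76. Epoxide hydrolase (RGIAI20) had -1.36, -0.85 and -0.54, selenium-binding protein (RNABL90) -1.47 and -1.20 in animals 2 and 3, and 1-Cys peroxiredoxin (RNABM65), an antioxidant enzyme of astrocytes, -0.93, -0.78 and -0.43. Without animal 1, the alpha and mu transferases had means of -0.61 each, the hydrolase -0.70 and the peroxiredoxin -0.61, all short of the limit, and without animal 2 the hydrolase and the peroxiredoxin had adjusted p of 0.021 and 0.0348. A dye term gave the peroxiredoxin a mean of -0.64. Members of these enzyme families share sequence, so a cDNA spot may also have bound the RNA of relatives.

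Polyamine and sulphur amino acid enzymes gave 2 of 5 clones called higher and 1 lower. Ornithine decarboxylase (RGIAC87), the first step of polyamine synthesis, had 1.37, 0.96 and 1.02. Cystathionine beta synthase (RNABU17), which draws homocysteine into cysteine synthesis, had -1.68, -1.12 and -0.86 (mean -1.22 ± 0.42, n = 3, adjusted p = 0.000694). The next enzyme of that route, cystathionine gamma-lyase (RGIAJ85), was on the opposite side with 0.74, 0.38 and 1.12 and lost the call without animal 3, where its mean was 0.56.

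Signalling enzymes and receptors had 4 of 9 clones called in each direction. MAP-kinase phosphatase (cpg21, RNABU33), an activity-regulated gene that switches MAP kinases off, had 2.30, 2.26 and 1.43 (mean 2.00 ± 0.49, n = 3, adjusted p = 4.31e-05). Phosphodiesterase PDE4B (RGIBB95), which breaks down cAMP, had 1.56, 1.32 and 1.05, MAP kinase-activated protein kinase 2 (RNABR42), of the p38 pathway, had 1.15 and 0.95 in animals 2 and 3, and the nuclear transport GTPase RAN (RNABM38) had 1.42, 1.45 and 1.24. Lower were Edg-1 (RGIAW49), the sphingosine 1-phosphate receptor of endothelium and lymphocytes, with -1.25, -1.13 and -0.76 (mean -1.05 ± 0.25, adjusted p = 0.000667) and the soluble guanylyl cyclase alpha 1 subunit (RNABL61), the nitric oxide receptor, with -1.27 and -0.83 in animals 2 and 3. G protein beta 1 (RGIBA64) had -0.73, -0.93 and -0.86. The kinase MEKK1 (RNABI85) had -1.23, -0.72 and -0.62 and a mean of -0.67 without animal 1.

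The lowest mean of all clones was that of the putative N-acetyltransferase CML3 (RGIAV89), with -2.28, -2.46 and -1.98, a mean of -2.24 ± 0.24 (SD, n = 3, adjusted p = 5.44e-06). It was the only clone below -2 and its values did not approach 0 in any animal. The next lowest was a clone listed as unknown (RGIAX45), with -1.66, -1.92 and -1.08 and a mean of -1.55. Lysine-ketoglutarate reductase (RGIAQ87), of lysine breakdown, had -0.93 and -1.61 in animals 1 and 2 (mean -1.27, adjusted p = 0.00213).

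Transport and secreted proteins were called lower for 9 of 10 clones, with a median mean of -1.20. All 10 were drawn from the list of lowered clones, while glucose-transporter type 1, osteopontin and insulin-like growth factor-binding protein 3, which also are transporters or secreted, stand in other lists and were called higher. Claudin-7 (RNACE16, listed as an EST), a tight junction protein, had -1.78 and -1.11 in animals 2 and 3. Annexin A7 (RNABA70), a membrane-binding protein, had -1.95, -1.12 and -1.10 (mean -1.39 ± 0.49, n = 3, adjusted p = 0.000531), opposite in direction to annexin II. Brain digoxin carrier protein (RNABU18), an organic anion transporter, had -1.80, -1.47 and -0.76 (mean -1.34 ± 0.53, adjusted p = 0.000825), and the peptide transporter of solute carrier family 15 (RNABJ09) had -1.39, -1.04 and -0.63. These transporters were lower in every animal, least so in animal 3.

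Angiotensinogen (RGIAJ86), the precursor of angiotensin and in brain a product of astrocytes, had -1.09, -0.92 and -1.48 (mean -1.17 ± 0.29, n = 3, adjusted p = 0.000437) and was lowest in animal 3. Albumin (RGIAJ87) had -1.47, -1.41 and -0.82. Fibrinogen-like protein 2 (RGIAL68) had -1.45, -0.73 and -0.75. Small regulators of ion pumps were also lower, phospholamban (RGIAV16) with -1.54 and -0.94 in animals 1 and 2 and phospholemman (RNABN45) with -1.47, -0.76 and -0.55. Phospholemman lost the call without animal 1, where its mean was -0.65, and without animal 2, where its adjusted p was 0.021. Apolipoprotein E (RNAB87), the main lipid carrier of astrocytes, had -0.86, -0.47 and -0.70 and a mean of -0.68, short of the limit.

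**Figure D4:**
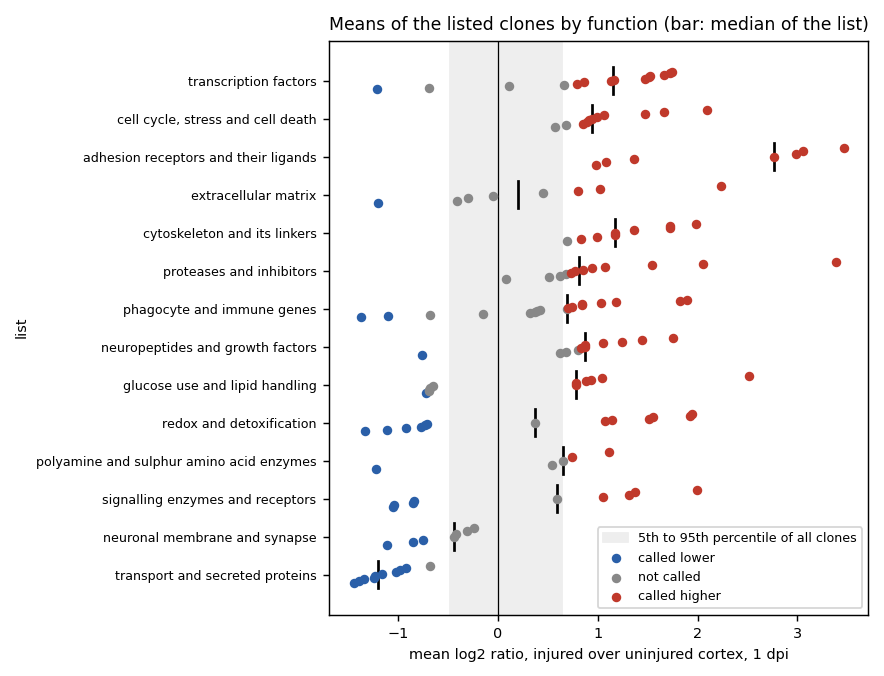
Mean log2 ratio of injured over uninjured cortex for each listed clone (points, red called higher, blue called lower, grey not called), by function, with a bar at the list's median and a grey band from the 5th to the 95th percentile of all clones. Adhesion receptors and their ligands, all listed as raised, have a median of 2.77, transport and secreted proteins, all listed as lowered, one of -1.20, and redox and detoxification genes fall on both sides of the band.

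Genes of neuronal membrane and synapse were called lower for 3 of 7 clones, with a median mean of -0.44. The delta subunit of the GABA-A receptor (RNABY14), which forms extrasynaptic inhibitory receptors, had -1.43, -0.66 and -1.25 (mean -1.11 ± 0.40, n = 3, adjusted p = 0.00114). N-copine (RNABY95), a calcium-binding protein of neurones, had -1.30, -0.83 and -0.43 and cpg2 (RNABY86), a protein of the postsynaptic spine, -0.79, -0.84 and -0.64. N-copine was not called without animal 1, where its mean was -0.63, or without animal 2, where its mean of -0.86 was as low but the adjusted p was 0.0312. Without animal 2, cpg2 had a mean of -0.71 and an adjusted p of 0.021, just outside the limit. The sodium pump alpha 1 subunit (RGIAM85) had 0.03, -0.44 and -0.31, and the septin CDCrel-1A (RGIAN17) -0.62, -0.32 and -0.33, with neither called.

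Read as cell type markers, 3 of 4 astrocyte clones (angiotensinogen, the peptide transporter and 1-Cys peroxiredoxin) were called lower, with a median of -0.87, as were 2 of 4 neuronal clones (the GABA-A delta subunit and cpg2), with a median of -0.60. These 8 clones all came from the list of lowered clones, and neuropeptide Y and cholecystokinin, which are neuronal too and were called higher, are not among them. Vimentin, which reactive astrocytes share with other cells, went the other way. Of 3 oligodendrocyte clones, oligodendrocyte-myelin glycoprotein (RNACB85) was called lower with -0.999, -0.89 and -0.44, whereas the myelencephalon specific protease and transferrin (RNAA26, with 0.18, 0.33 and 0.30) were above 0 and not called. The glycoprotein's mean was -0.66 without animal 1, its adjusted p 0.0331 without animal 2 and its mean -0.69 with a dye term. Both endothelial clones were called, glucose-transporter type 1 higher and Edg-1 lower. Of the clones for meninges and fibroblasts, insulin-like growth factor II was called lower and the collagens were not called. How much of each ratio came from a change in the make-up of the tissue was not tested.

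The animals differed in a way that followed the gene. Among the 32 gene-named clones called lower with a value in every animal, the decrease was largest in animal 1 for 25, in animal 2 for 5 and in animal 3 for 2, and smallest in animal 3 for 22, in animal 2 for 8 and in animal 1 for 2. Over all 75 clones called lower, the median log2 ratio was -1.17 in animal 1, -0.84 in animal 2 and -0.71 in animal 3. Among the 84 such clones called higher, the increase was smallest in animal 3 for 28 and largest there for 33, so no uniform shrinkage was seen on that side. Some clones in animal 3 lay far from the other arrays. Below the mean of animals 1 and 2 were c-fos, by 1.44 on the log2 scale, the v-myc homolog, by 1.11, and the nerve growth factor inducible protein PC4 (RNABR40, with 1.90, 1.55 and 0.86), by 0.86. Above it were osteopontin, by 1.47, fibulin 2, by 1.40, and CD44, by 1.16. The dye of the injured side also changed between animals 2 and 3, so animal and dye cannot be told apart for the genes named here, which were chosen after their values were seen.

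**Figure D5:**
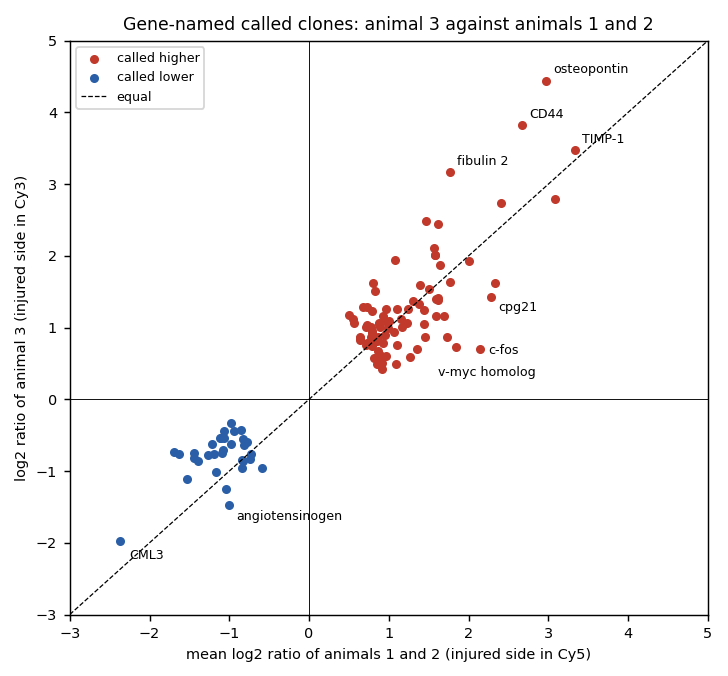
Each point is 1 of the 116 gene-named called clones with a value in every animal, with the mean log2 ratio of animals 1 and 2 (injured side in Cy5) on the x axis and that of animal 3 (injured side in Cy3) on the y axis, and the dashed line marks equal values. Osteopontin, CD44 and fibulin 2 lie above the line and c-fos, the v-myc homolog and cpg21 below it, and most clones called lower lie above it, nearer to 0 in animal 3.

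Genes that the study listed only for 4 dpi, on other animals, had day 1 values of their own. Of 34 such clones listed as higher at 4 dpi, 6 were called higher at 1 dpi, where 3.9% of all clones tested were. Among the 34, 27 had a mean above 0, with a range from -0.41 to 1.75 and a median of 0.40, beside 0.01 over all clones. The study's test of these same arrays had not listed them at 1 dpi, so the number called depends on that choice. The called ones, named after their values were seen, were melanocyte-specific gene 1 protein, retinol-binding protein 1 (RNABM84, with 0.61 and 1.69 in animals 2 and 3, not called with robust eBayes at an adjusted p of 0.0377), a clone similar to glucuronyltransferase I (RGIAR36, with 0.69 and 1.45), TIMP-2, poly A binding protein (RGIAS49) and C1q C chain. Collagen I was the lowest of them. Of 7 clones listed as lower only at 4 dpi, 0 were called at 1 dpi by limma and 0 by SAM, a permutation test that the study's methods name. The study's own use of that test on these same arrays did not list them at 1 dpi, so the 0 calls follow from that choice. In limma, 6 had an unadjusted p under 0.05, a threshold that 28.0% of all clones tested passed, 12.4% with a mean below 0. The means of all 7 were below 0, with a median of -0.43.

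Several of the largest changes belonged to clones without a gene name. A clone listed as unknown (RGIAZ71) had the highest mean of all, 3.79 ± 1.12 (SD, n = 3, adjusted p = 2.8e-05), from 4.94, 3.71 and 2.71 in animals 1, 2 and 3. A clone in no list (RNABH44) had 4.03 and 3.16 in animals 1 and 2 and no value in animal 3. No gene-named clone had a mean as high as these, and both were clear of 0 in every animal with a value. Among named clones of the leading 10, 3'(2') 5'-bisphosphate nucleotidase (RNABI21), an enzyme of sulphate metabolism, had 2.64 and 3.41 in animals 1 and 2.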

How the data were processed

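RNA of injured and uninjured cortex from 3 rats at 1 dpi was compared on 2-colour cDNA arrays, 1 per animal, with arrays assigned by their labels and 0 columns of values belonging to no sample. The authors dropped spots not found or under 2 times their background, turned the ratio of swapped dyes, applied Lowess to each array and deposited the values as log2 ratios. Intensities were not analysed here, so the depth is unknown and the number of arrays limits precision. Means were tested against 0 with limma 3.58.1 under R 4.3.3 (lmFit, eBayes), with p adjusted over all 4952 clones by Benjamini-Hochberg. The p-values rest on the spread between these animals, drawn by eBayes toward a spread common to all clones (prior degrees of freedom 8.46). CD24, with an SD of 0.00046, thus had a standard error of 0.117. The limits come from the study's methods, which also applied 0.7 to each array, whereas here it was applied to the mean. That form and the methods' SAM test were alternatives. The others were the limits, all 3 arrays, a dye term, centring, scaling to a common median absolute deviation (MAD), robust eBayes, the median and each replicate left out. Tested on simulated data with 200 clones changed by 2 (log2) among 4952, limma recovered 78.5% and SAM 91%. Only 17 real clones had a mean beyond 2 in either direction, so recovery of changes nearer to 0.7 was not tested. False calls are not given here, so these shares do not rank the tests.

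Names came by clone ID from the study's lists. Of 253 listed clones, 239 were used. An ID was dropped where its values differed from the listed fold change by over 0.2 (log2), the sole use of those fold changes. Named were the 10 largest means in each direction, with at most 2 clones known by ID alone on each side, and the clones of functional lists. A few others are said to be chosen after their values were seen. Members and lists were chosen with earlier results of these data known. Values at 4 dpi were not used. Motifs were searched on both strands. Python 3.11.15, pandas 2.3.3 and matplotlib 3.10.9 were used.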

Additional observations from a re-analysis of the deposited data

How the results depend on the processing

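The 193 clones called higher and 75 called lower became 202 and 82 with SAM, which held all of them, 201 and 83 at an adjusted p of 0.05 and 175 and 68 at 0.01. A dye term gave 197 and 69, centring 194 and 78, scaling 196 and 77, robust eBayes 186 and 75 (186 and 74 of them shared) and a value on all 3 arrays 143 and 64 of 3803. Counts moved by over 1.5 times with 0.7 required on every array (112 and 26), with no limit on the mean (283 and 136, only the lower ones past 1.5 times) with a mean beyond 1 (95 and 23) and, for the higher ones, without animal 2 (121). Leaving out each replicate gave 121 to 196 higher and 51 to 103 lower, with 51 without animal 2 and 103 without animal 3. Without animal 1, limma gave all clones 1 common spread, and its p-values then rest on that. Among clones with 3 values, 97 of 140 called higher and 28 of 61 called lower were called in all 3 of these fits. Of 115 called clones from the functional lists or the leading means, 22 lost the call in at least 1 of the alternative fits named here, 16 of them without animal 2, 10 without animal 1, 3 without animal 3, 4 with a dye term, 2 with robust eBayes and 1 on centring, and no direction turned. Clones named only outside those lists, such as retinol-binding protein 1, are not in this tally. Of the clones in the lists that were not called, 17 gained a call in at least 1 of these fits. Clones with a value in 2 animals cannot be refitted without either of them. The cause of these losses was not tested. No paired analysis was possible because only 1 group was used, and each ratio already sets the sides of 1 animal against each other.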

Other observations

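Clones with a value in only 2 animals were called higher in 4.61% and lower in 1.22% of cases, against 3.68% and 1.60% of those with a value in every animal. Of the 53 clones called higher on 2 values, 38 (71.7%) lacked animal 1, against 84.4% of all clones with 2 values. Separate clones of poly A binding protein, which coats the tails of messenger RNA, were both called, with means of 0.81 and 0.73. Among further genes, chosen after their values were seen, cellular retinoic acid-binding protein I (RNACA59) had log2 ratios of 1.30 in animals 2 and 3 and was called higher, and tryptophan-2,3-dioxygenase (RNABK11), which opens the kynurenine route, had 0.71, 0.91 and 0.57.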
